A study of Triticum aestivum with 27 samples.

Results

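The loci described here lay outside the TraesCS gene models of bread wheat. They were all rows of the deposited expression table whose identifiers begin with Triticum_aestivum_newGene_, a rule that uses no measured value. There were 42909 such loci among 153699 genes (27.9%), and the other 110790 genes carried TraesCS identifiers. They are called new loci here, and single loci are named by the end of their identifier, such as newGene_42634. Spikes were taken at the wax-ripe stage, when a grain can still germinate in the ear if it becomes wet, which is pre-harvest sprouting. The study first soaked the cut spikes for some hours and froze the 0 h samples after that soak, so 0 h is not an unwetted state. The treatment then held spikes at 22 °C in humid air (95% relative humidity), with samples at 0, 48 and 96 h. The varieties were Baipimai (white-grained, resistant to sprouting), Shengsimai (red-grained, highly resistant) and Zhoumai18 (white-grained, highly susceptible), and the labels name no transgene or other introduced allele. The number in the names of the Baipimai libraries is not the one that the study's list of accessions gives to Baipimai, so the identity of that variety rests on the sample labels. With 3 replicates in each of 9 groups of variety and time, there were 27 libraries of polyadenylated RNA from whole spikes.

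Bread wheat is a hexaploid with A, B and D subgenomes, and its reference gene models were built on the landrace Chinese Spring. A transcript from another variety can therefore come from a gene the reference lacks, from a model that was missed, or from a non-coding transcript, a transposable element or an extension of a known gene, or from another organism living on the spike. During imbibition, stored transcripts of the dry grain give way to newly made ones, and in a spike this takes place beside ripening glumes and rachis. The positions and sequences of the new loci were not analysed here, so none of these kinds could be assigned to a locus.

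Library totals ran between 45590141 and 55765523 counts. The TMM scaling factors, which correct for a few genes taking many reads, were 0.714 to 0.977 at 0 h and 1.01 to 1.16 at 48 and 96 h. Of the marker symbols for green tissue, endosperm and embryo, the deposited table paired only a light-harvesting chlorophyll protein gene, LHC Ib-21, with identifiers. Its 2 TraesCS genes averaged 16.4 and 27 FPKM in Zhoumai18 at 96 h and at most 0.292 FPKM in the other 8 groups. In whole spikes, a change in the number of cells of a kind and a change in RNA per cell cannot be told apart. The labels call the replicates separate samples of a group without naming plants, and the paper counts each spike as a biological replicate. The p-values therefore measure the spread between these samples. They do not measure the spread between varieties of a resistance class, since a single susceptible variety was sampled.

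Most new loci were rare transcripts. Their median level was 0.182 CPM (counts per 1e+06 counts of the library total), against 0.427 CPM for TraesCS genes, and 2156 new loci (5.02%) averaged over 10 CPM, against 16947 TraesCS genes (15.3%). At least 10 counts in some library were found for 31513 new loci (73.4%), against 76680 TraesCS genes (69.2%). Far fewer were found everywhere: 8062 new loci (18.8%) had 10 counts or more in all 27 libraries, against 40198 TraesCS genes (36.3%). No new locus lacked counts in every library, whereas 17986 TraesCS genes (16.2%) did; a locus outside the annotation can enter the table through reads alone, so this contrast and that of detection in some library can follow from how the loci were listed. Counts were spread over many new loci, since the 10 most abundant held 2.91% of all counts of new loci, the first 100 held 11.9%, the first 1000 held 39.6%, and 1663 loci together held 50%. The highest new locus averaged 478 CPM, against 19252 CPM for the highest TraesCS gene, and 0 of the 50 most abundant genes of the table was a new locus.

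The ratio of a locus's count to its FPKM gives the length that the authors' processing divided by. Over 23175 new loci with at least 20 counts in the libraries read, the median of that length was 2165 bases (quartiles 1425 and 3172), against 1423 bases (quartiles 946 and 2040) over 66555 TraesCS genes. The length of a new locus was less fixed than that of a TraesCS gene. The highest over the lowest length among libraries had a median of 1.21 in new loci and 1.05 in TraesCS genes, and it passed 1.2 in 50.6% of new loci, against 1.36% of TraesCS genes. FPKM values of a new locus therefore vary between libraries with the length as well as the counts. The tests below use counts, but the loci to be tested, and part of the named loci, were chosen by FPKM.

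Few new loci had a name. A gene symbol from the authors' database search was given to 2825 of them (6.58%), against 41103 TraesCS genes (37.1%). Of these symbols 2802 were LOC numbers, which stand for predicted genes without a name, and 23 were others. A total of 897 named new loci (31.8%) carried a symbol that a TraesCS gene also carried, so reads of a new locus and of such a gene can belong to copies of 1 gene family. Some symbols recurred: LOC109782218 stood on 17 new loci, LOC109781290 on 16 and LOC109741843 on 15, of which the first 2 stood on 0 TraesCS genes and the last on 5. The level filter of the tests (1 FPKM in at least 3 libraries) was passed by 36.6% of new loci with a symbol and 31.8% of those without.

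The 15 loci of LOC109741843 were followed as a sum, in CPM of the library total averaged over 3 libraries. At 0, 48 and 96 h the sum was 32.6, 36.8 and 42.8 CPM in Baipimai, 53.9, 91.7 and 74.0 CPM in Shengsimai and 56.4, 86.6 and 49.7 CPM in Zhoumai18. It was lowest in Baipimai at all 3 times, and in the other 2 varieties it was highest at 48 h.

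The share of counts in new loci is the part of all gene counts of a library that was assigned to loci outside the TraesCS models. Reads that were assigned to no listed gene are not in it, so it is not the part of the transcriptome that the reference lacks. In Baipimai the share was 7.33, 6.89 and 7.93% in the 3 libraries at 0 h, 9.83, 8.93 and 10.9% at 48 h and 9.77, 10.3 and 9.61% at 96 h. In Shengsimai it was 6.12, 5.69 and 5.73% at 0 h, 12, 11.6 and 13.2% at 48 h and 11.8, 11.4 and 11.1% at 96 h. In Zhoumai18 it was 7.5, 7.63 and 7.41% at 0 h, 11.3, 10.9 and 10.6% at 48 h and 7.67, 7.64 and 7.66% at 96 h. All 3 libraries at 48 h lay above all 3 at 0 h in every variety. At 96 h the share stayed above the 0 h libraries by a wide gap in both resistant varieties, but in Zhoumai18 it was back within a narrow distance of them. Where Zhoumai18 lay at 96 h depended on the measure. With the 50 most abundant genes of the table left out of the total, its share was 7.94 to 7.95% at 96 h, below the 8.89 to 9.10% of 0 h, and as a share of summed FPKM it was 4.65 to 4.75%, above the 3.90 to 4.01% of 0 h. The group means were 7.38 ± 0.521, 9.89 ± 0.985 and 9.88 ± 0.337% in Baipimai, 5.85 ± 0.239, 12.3 ± 0.820 and 11.4 ± 0.318% in Shengsimai and 7.51 ± 0.108, 10.9 ± 0.346 and 7.66 ± 0.0165% in Zhoumai18 at 0, 48 and 96 h (SD, n = 3).

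The times were compared by an exact two-sided permutation test of libraries within varieties, with p adjusted over 6 tests; 3 against 3 libraries alone cannot go below p = 0.1. Averaged over varieties, the share was 4.10 percentage points higher at 48 than at 0 h (adjusted p = 0.00075 in the exact test), and 2.74 points higher at 96 than at 0 h (adjusted p = 0.00075). Between 96 and 48 h it differed by -1.36 points (exact test, adjusted p = 0.0315), a call lost without Shengsimai 48 h replicate 3 (-1.21 points, adjusted p = 0.0585) or Baipimai 48 h replicate 3 (-1.19 points, adjusted p = 0.067). The call was also lost with the replicate number as a block, as given below. Averaged over times, no pair of varieties passed the test: Baipimai minus Zhoumai18 was 0.361 points (adjusted p = 0.406, exact test), Shengsimai minus Zhoumai18 1.16 points (adjusted p = 0.114) and Baipimai minus Shengsimai -0.796 points (adjusted p = 0.18). The share taken by the 50 most abundant genes also moved. It averaged 20.03, 13.1 and 13.7% in Baipimai, 25.2, 18.7 and 17.2% in Shengsimai and 16.6, 9.04 and 3.58% in Zhoumai18 at 0, 48 and 96 h. With those genes left out of the total, the share was still 4.12 points higher at 48 than at 0 h (adjusted p = 0.0015, exact test), and Shengsimai then passed the test against Zhoumai18 (2.59 points, adjusted p = 0.0274).

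**Figure D1:**
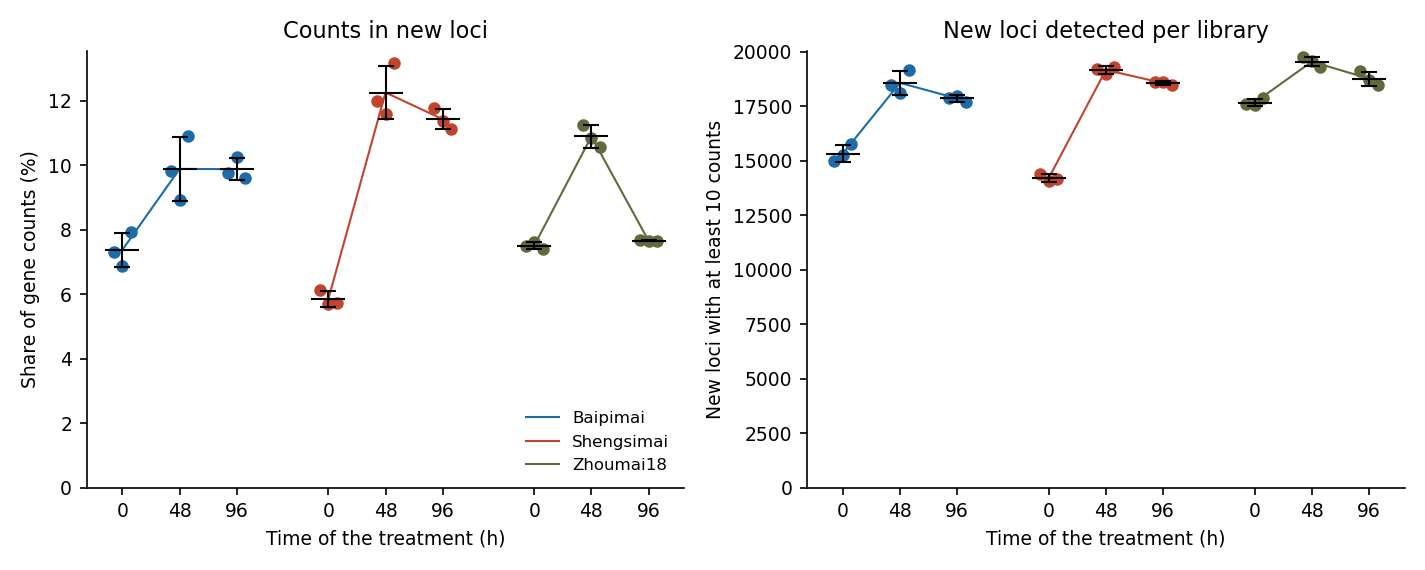
Share of counts in new loci (percent of all gene counts, left) and number of new loci with at least 10 counts (right) in each of the 27 libraries, by variety and time; points are libraries, the wide bars are group means with the SD, and lines join the means. The share peaks at 48 h in Zhoumai18 (mean 10.9%) and lies near its 0 h level at 96 h (mean 7.66%), while both resistant varieties stay high at 96 h.

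The number of new loci with at least 10 counts in a library moved in the same time order. It was 14990, 15257 and 15752 in Baipimai at 0 h, 18465, 18100 and 19170 at 48 h and 17886, 17988 and 17710 at 96 h. In Shengsimai the numbers were 14390, 14060 and 14172 at 0 h, 19203, 18990 and 19327 at 48 h and 18627, 18609 and 18468 at 96 h. In Zhoumai18 they were 17595, 17551 and 17880 at 0 h, 19755, 19571 and 19328 at 48 h and 19117, 18730 and 18476 at 96 h. At 0 h every Zhoumai18 library held more detected new loci than any library of the resistant varieties. The same was true of TraesCS genes (at least 53880 in Zhoumai18, against at most 52181). Averaged over varieties, 3362 more were detected at 48 than at 0 h and 2663 more at 96 than at 0 h, while 96 minus 48 h was -699.8 (each adjusted p = 0.000375, exact permutation test within varieties). For TraesCS genes the same differences were 5799.9, 7749 and 1949, the last with an adjusted p of 0.114 in the exact test. Averaged over times, Baipimai minus Zhoumai18 was -1409 new loci (adjusted p = 0.000375, exact test), Shengsimai minus Zhoumai18 -1351 (adjusted p = 0.0027) and Baipimai minus Shengsimai -58.7 (adjusted p = 0.83). Over TraesCS genes Baipimai minus Zhoumai18 was -3463 (adjusted p = 0.0348, exact test) and Shengsimai minus Zhoumai18 -6525 (adjusted p = 0.000375). Baipimai minus Shengsimai was 3062 TraesCS genes (adjusted p = 0.000375, exact test). Fewer detected loci than in Zhoumai18 were therefore not particular to new loci. Both differences of new loci from Zhoumai18 were lost with detection at 1 FPKM, where they were -119 in Baipimai and 74 in Shengsimai.

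The 10 most abundant new loci did not share a time course. For single loci, levels are given as CPM scaled by the TMM factors in replicates 1, 2 and 3, and changes are log2 fold changes of edgeR's quasi-likelihood fit with p adjusted by Benjamini-Hochberg over the 68658 genes tested. In all varieties a large part of the tested genes changed over time, so a call alone says little about a locus.

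The most abundant, newGene_42634 (no symbol), was at 1255, 1252 and 1169 CPM at 0 h, 245, 248 and 242 CPM at 48 h and 136, 137 and 139.7 CPM at 96 h in Baipimai. Shengsimai libraries held it at 762, 829 and 845 CPM, then 433, 438 and 424 CPM and 447, 446 and 429 CPM at the same times. Zhoumai18 had 791, 896 and 972 CPM at 0 h, 298, 271 and 264 CPM at 48 h and 132, 131 and 133 CPM at 96 h. The 3 libraries of each later time lay below all 3 of 0 h in every variety, with the mildest fall in Shengsimai. Its log2 fold change of 96 over 0 h was -3.15 (SE 0.07, adjusted p = 1.1e-23) in Baipimai, -0.87 in Shengsimai and -2.73 in Zhoumai18. The change in Shengsimai minus that in Zhoumai18 was 1.86 (SE 0.09, adjusted p = 3.6e-16).

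The locus newGene_47473 (no symbol) was at 200.01, 188 and 245 CPM at 0 h, 249, 213 and 318 CPM at 48 h and 139, 143 and 146 CPM at 96 h in Baipimai. Shengsimai libraries held it at 20.4, 15.1 and 18.3 CPM, then 437, 411 and 470.5 CPM and 344, 341 and 315 CPM at the same times. Zhoumai18 had 159, 175 and 159 CPM at 0 h, 137, 120.4 and 123 CPM at 48 h and 9.84, 9.29 and 9.64 CPM at 96 h. Shengsimai was the lowest variety at 0 h and the highest at 48 and 96 h, and Zhoumai18 was the lowest at 96 h, and the libraries of those groups did not overlap with the others of the same time. The log2 fold change of 96 over 0 h was -0.56 in Baipimai, 4.23 (SE 0.13, adjusted p = 5.3e-21) in Shengsimai and -4.09 in Zhoumai18, all past the test. The change in Shengsimai minus that in Zhoumai18 was 8.32 (SE 0.18, adjusted p = 6.8e-24). A locus of the same order of level, newGene_8074, had log2 fold changes of 0.23 (SE 0.13, adjusted p = 0.0973) in Baipimai, not past the test, 3.16 in Shengsimai and -2.01 in Zhoumai18.

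For newGene_18308 (no symbol) the times of the peak differed. It was at 38.8, 38.8 and 38.2 CPM at 0 h, 134, 127 and 129 CPM at 48 h and 649, 677 and 660.3 CPM at 96 h in Baipimai. Levels in Shengsimai were 12.3, 13.2 and 12 CPM, then 174, 173 and 154 CPM and 101, 97.6 and 112 CPM at the same times. Zhoumai18 had 23.7, 30.4 and 29.6 CPM at 0 h, 493, 485 and 427 CPM at 48 h and 44.6, 45.3 and 40.3 CPM at 96 h. The highest libraries were those of 96 h in Baipimai and those of 48 h in Shengsimai and Zhoumai18, with no overlap with the other times. In Zhoumai18 the log2 fold change was 4.07 for 48 over 0 h and -3.43 for 96 over 48 h, and for 96 over 0 h it was 4.11 (SE 0.09, adjusted p = 5.6e-24) in Baipimai. The locus newGene_36604, with the symbol LOC109753696, had the same order in Baipimai and Zhoumai18: 1.64 for 96 over 0 h in Baipimai, and 1.64 and then -2.35 for the intervals to 48 and to 96 h in Zhoumai18.

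The locus newGene_15063, with the symbol LOC109767579, was at 86.6, 77.1 and 84.7 CPM at 0 h, 207, 216 and 217 CPM at 48 h and 239, 224 and 237 CPM at 96 h in Baipimai. The Shengsimai libraries were at 74.7, 61.6 and 65.5 CPM, then 105, 115 and 112 CPM and 319, 332 and 293 CPM at the same times. Zhoumai18 had 124, 90.5 and 111 CPM at 0 h, 125, 116 and 106 CPM at 48 h and 781, 839 and 754 CPM at 96 h. It was highest at 96 h in every variety and highest of all in Zhoumai18 at that time. The log2 fold change of 96 over 0 h was 1.5 in Baipimai, 2.24 in Shengsimai and 2.88 (SE 0.09, adjusted p = 6.5e-21) in Zhoumai18. By contrast newGene_18798, with the symbol LOC109747968, had 0.75 in Baipimai, -0.28 in Shengsimai and -1.54 (SE 0.07, adjusted p = 2.0e-17) in Zhoumai18. A TraesCS gene carries the same symbol as each of these named loci (TraesCS7A01G548000 for newGene_15063 and TraesCS1B01G329600 for newGene_18798), so the counting may have split reads between them.

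The remaining 3 of the 10 were flat or falling. The flattest, newGene_52996, had log2 fold changes of 96 over 0 h of -0.01 (SE 0.07, adjusted p = 0.944) in Baipimai, -0.28 in Shengsimai and -0.02 (SE 0.07, adjusted p = 0.802) in Zhoumai18. The locus newGene_53295, deposited with the symbol METBIDRAFT_76215 (not the form of a wheat symbol, and whether the transcript is of wheat was not tested), fell in each variety, by 1.14 in Baipimai, 1.25 in Shengsimai and 0.79 in Zhoumai18 on the log2 scale. In newGene_40830 the fall was largest in Shengsimai, with 41.0, 28.6 and 30.0 CPM at 96 h, against 1339, 1068 and 874 CPM at 0 h, and a log2 fold change of -5.03 (SE 0.51, adjusted p = 8.0e-10). Its Zhoumai18 libraries at 96 h were wide apart, at 4.48, 7.47 and 41.1 CPM, all below the 58.3, 48.3 and 56.9 CPM of 0 h.

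**Figure D2:**
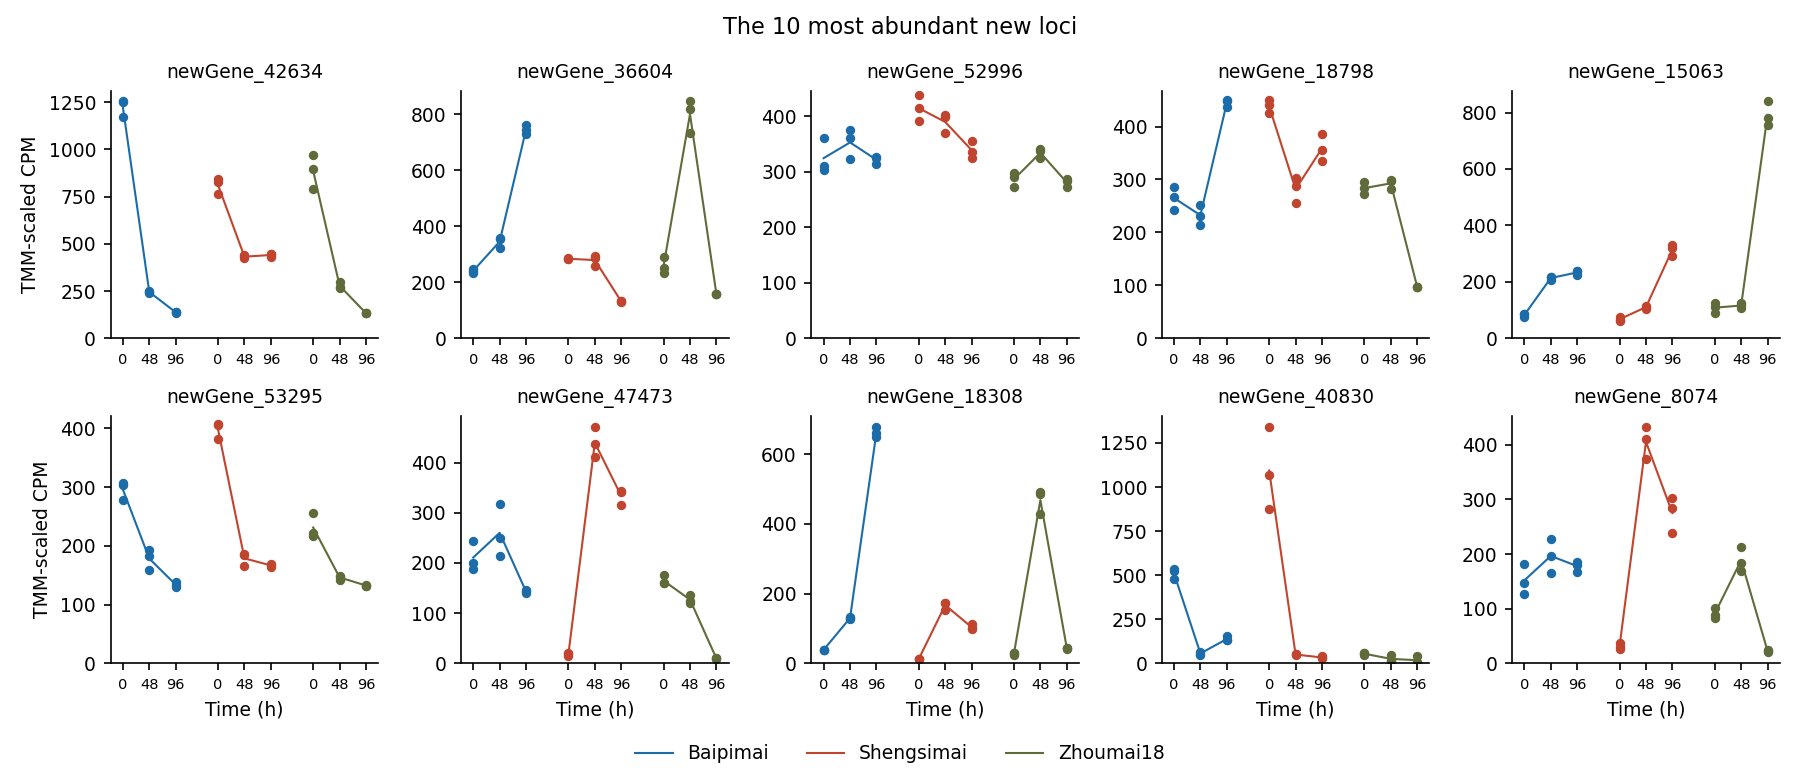
Levels of the 10 most abundant new loci (TMM-scaled CPM, linear axes, a scale for each panel) in each library at 0, 48 and 96 h in the 3 varieties; points are libraries and lines join group means. The courses cross between varieties: newGene_47473 reaches 344, 341 and 315 CPM in Shengsimai and 9.84, 9.29 and 9.64 CPM in Zhoumai18 at 96 h.

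From 0 to 48 h and from 0 to 96 h, new loci rose more often than they fell in each variety. The comparison asks how the transcripts of each variety changed in the humid chamber. A locus passed the filter with 1 FPKM in 3 libraries, so a locus that reached that level in a single group was tested because it was high there; the counts below are read against the same filter in all genes. At 48 over 0 h, 6693 of the 13787 tested new loci rose in Baipimai (48.5%) and 2537 fell (18.4%), where 40.9% of all tested genes rose and 31.3% fell (72.2% in either direction). In Shengsimai 8374 rose (60.7%) and 1958 fell (14.2%), against 37.6% and 34.5% of all tested genes (72.1% in either direction). In Zhoumai18, 7399 rose (53.7%) and 3025 fell (21.9%), against 39.4% and 33.4% of all tested genes (72.9% in either direction). The excess of rises was widest in Shengsimai, where the median log2 fold change was 1.18 over the new loci and 0.02 over all genes tested; it was 0.53 against 0.15 in Baipimai and 0.68 against 0.09 in Zhoumai18. With scaling from TraesCS genes alone, the median of all genes in Shengsimai moved by 0.25 on the log2 scale, and rises still made up 84.9% of the calls of new loci there, against 81.0% with the scaling used. The excess in Baipimai depended on level (mean CPM of the library total). Below 1 CPM, 30.3% of new loci rose and 12.1% fell, against 43.9% and 12.5% of TraesCS genes. Between 1 and 5 CPM 50.7% rose, against 46.8%, and at 20 CPM or more 53.7%, against 26.7%. In Shengsimai and Zhoumai18 a larger share of new loci than of TraesCS genes rose in each range of level used below.

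In the second interval rises no longer led in Shengsimai and Zhoumai18. At 96 over 48 h, 3413 new loci rose and 2892 fell in Baipimai, together 45.7%, against 55.8% of all tested genes. In Shengsimai 1977 new loci (14.3%) were called, 756 of them higher and 1221 lower at 96 h, against 21.6% of all tested genes, 13.6% higher and 8.05% lower. In Zhoumai18, 1536 rose (11.1%) and 7317 fell (53.1%), where 36.7% of all tested genes rose and 38.1% fell. The median log2 fold change of new loci in Zhoumai18 was -0.58, against -0.02 over all genes tested. The larger share of rises in Baipimai depended on the scale, since limma on log2(FPKM + 1) gave 41.9% of its calls as rises, against 54.1% here.

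Over the whole interval (96 over 0 h), 6780 new loci rose and 2393 fell in Baipimai (66.5% called, against 70.8% of all tested genes). In Shengsimai 8317 rose and 2067 fell (75.3%, against 72.7%), and in Zhoumai18 5589 rose and 4611 fell (74.0%, against 82.2%). By direction, 49.2% rose and 17.4% fell in Baipimai, against 39.4% and 31.4% of all tested genes, and 60.3% and 15.0% in Shengsimai, against 39.5% and 33.2%. In Zhoumai18 the 40.5% that rose and 33.4% that fell stood in nearly the ratio of all tested genes (44.4% and 37.8%), with a median log2 fold change of 0.08 over new loci, against 0.12 over all genes tested. By level, below 1 CPM fewer new loci than TraesCS genes rose in Baipimai (28.9%, against 38.1%) and Zhoumai18 (38.8%, against 64.2%). At 20 CPM or more the order was the reverse (59.2%, against 33.2% in Baipimai, and 42.5%, against 30.2% in Zhoumai18). In Shengsimai a larger share of new loci rose in every range. At 48 over 0 h, 4713 new loci (34.2%) rose in all 3 varieties and 1150 (8.34%) fell in all 3, against 21.5% and 20.03% of all tested genes. At 96 over 0 h the numbers were 3302 (24%) and 1062 (7.70%), against 17.7% and 16.6%. At 96 over 48 h they were 21 (0.152%) and 135 (0.979%), against 0.752% and 0.703%. A rise in both resistant varieties with a fall in Zhoumai18 at 96 over 0 h was called for 952 new loci (6.91%, against 4.20% of all tested genes), and the reverse for 105 (0.762%, against 3.20%).

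**Figure D3:**
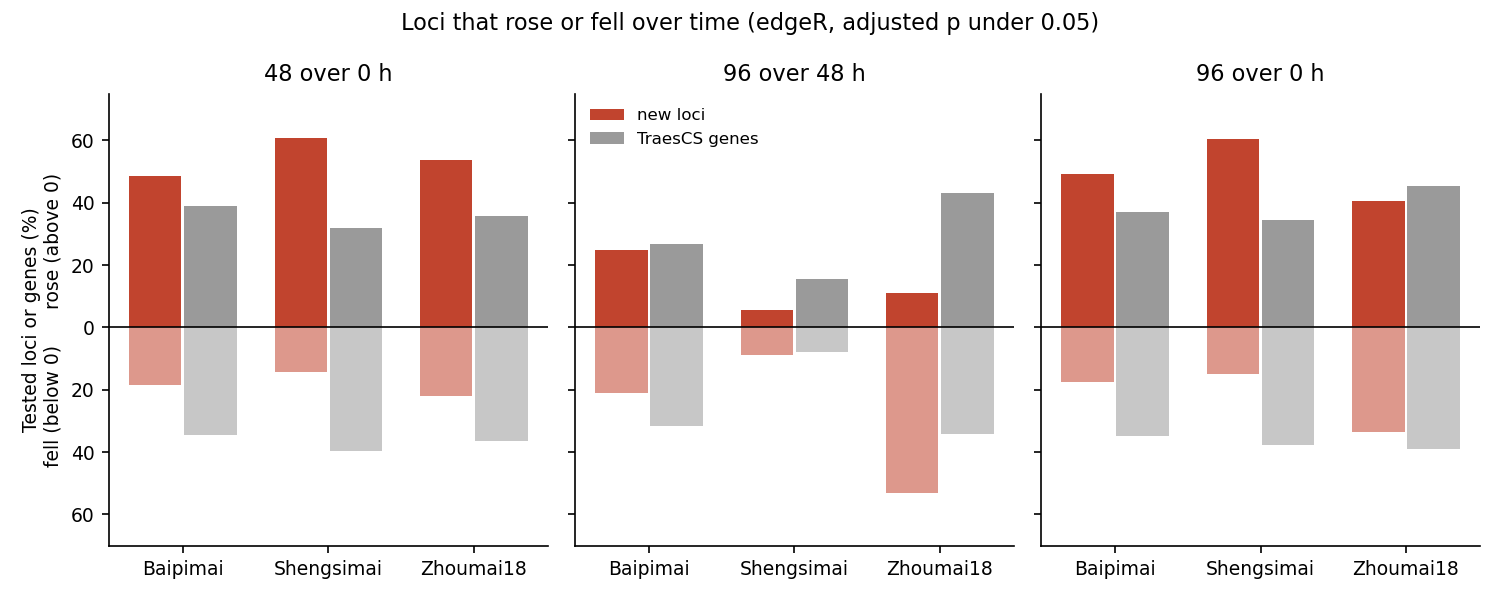
Percent of tested new loci (13787) and tested TraesCS genes (54871) that rose (above 0) or fell (below 0) at an adjusted p under 0.05 in edgeR's quasi-likelihood test, for each interval and variety. In Shengsimai 60.7% of new loci rose at 48 over 0 h, and in Zhoumai18 53.1% fell at 96 over 48 h.

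Loci that fell in all 3 varieties included transcripts abundant at 0 h that were nearly gone by 48 h. Of those named by rule, newGene_3010 was at 75.8, 72.5 and 75 CPM at 0 h, 0.245, 0.574 and 0.658 CPM at 48 h and 0.891, 0.507 and 0.405 CPM at 96 h in Baipimai. Shengsimai libraries held it at 111, 110.3 and 103 CPM, then 1.60, 1.96 and 1.35 CPM and 1.71, 1.28 and 0.888 CPM at the same times. Zhoumai18 had 129, 152 and 147 CPM at 0 h, 0.358, 0.285 and 0.420 CPM at 48 h and 0.0483, 0.0343 and 0.0715 CPM at 96 h. Every library at 48 and 96 h was far below every library at 0 h, with no overlap in any variety. The log2 fold change of 96 over 0 h was -6.94 (SE 0.18, adjusted p = 4.3e-22) in Baipimai, -6.38 in Shengsimai and -11.37 in Zhoumai18. The locus newGene_49678 had 0.475, 0.413 and 0.493 CPM in Shengsimai at 96 h, against 142, 122 and 128 CPM at 0 h, and log2 fold changes of -6.43 in Baipimai, -8.13 in Shengsimai and -10.38 in Zhoumai18. The third, newGene_22792, had 0 counts in all 3 Zhoumai18 libraries at 96 h, against 1356, 1240 and 1271 counts at 0 h (at least 1398-fold lower, taking 3 counts over the group as the lowest level a group without counts can be given), and log2 fold changes of -7.67 in Baipimai and -8.04 in Shengsimai.

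Of the loci that rose at 96 over 0 h in all 3 varieties, 3 are named, chosen for that rise. The locus newGene_21600 was at 7.22, 5.27 and 5.67 CPM at 0 h, 39.3, 41.3 and 34.9 CPM at 48 h and 74.8, 75.2 and 86.4 CPM at 96 h in Baipimai. The Shengsimai libraries were at 1.04, 1.02 and 0.803 CPM, then 7.01, 6.93 and 8.99 CPM and 32.2, 34.1 and 31.3 CPM at the same times. Zhoumai18 had 0, 0.0666 and 0.0627 CPM at 0 h, 74.0, 60.1 and 56.2 CPM at 48 h and 58.4, 58.9 and 51.7 CPM at 96 h. It was near 0 in Zhoumai18 at 0 h and was highest there at 48 h, while both resistant varieties were highest at 96 h. Its log2 fold change of 96 over 0 h was 3.71 (SE 0.13, adjusted p = 8.9e-20) in Baipimai and 5.10 in Shengsimai. In Zhoumai18 the 96 h libraries held 3624, 3433 and 2891 counts, against 0, 3 and 3 at 0 h. The locus newGene_49417 had log2 fold changes of 3.12 in Baipimai, 4.59 in Shengsimai and 2.68 in Zhoumai18, and newGene_48034 had 4.87, 6.22 and 5.55 in the same order.

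The largest rises within a variety were of loci without a count at 0 h. In Zhoumai18, newGene_12499 had 8204, 8948 and 7119 counts at 96 h, against 0 counts in all 3 libraries at 0 h (at least 7457-fold higher). At 48 h it had 0, 4 and 34 counts there, and its highest counts in the resistant varieties were 15 and 34 in replicate 3 of Baipimai at 0 and 48 h. The locus newGene_21381 had counts earlier in Zhoumai18, with 4925, 5033 and 5047 counts at 48 h and 2552, 2285 and 2387 at 96 h, against 0 at 0 h (at least 2219.6-fold higher at 96 h). It had at most 7 counts in any library of the resistant varieties. In Shengsimai, newGene_18717 had 1194, 1285 and 1182 counts at 96 h, against 0 at 0 h (at least 1302-fold higher), and 42, 27 and 16 at 48 h. Its other libraries were low, with 17, 9 and 15 counts in Baipimai and 117, 130 and 86 in Zhoumai18 at 96 h. In Baipimai, newGene_21907 had 2022, 1364 and 2277 counts at 48 h and 876, 1054 and 894 at 96 h, against 0 at 0 h (at least 979-fold higher at 96 h). The locus newGene_42724 had 868, 891 and 702 counts in Baipimai at 96 h, against 0 at 0 h, and in Zhoumai18 it had 554, 531 and 505 counts at 48 h only, with 0, 0 and 5 at 96 h and 0 at 0 h. Shengsimai held no count of newGene_42724 in any of its 9 libraries.

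The largest falls were of loci abundant at 0 h. In Zhoumai18, newGene_23289 had 0 counts in all 3 libraries at 96 h, against 6655, 7713 and 8026 counts at 0 h (at least 8098-fold lower). It persisted in the resistant varieties, at 27.1, 27.3 and 27.2 CPM at 96 h, against 123, 118 and 120.0 CPM at 0 h in Baipimai, and at 11.2, 10.8 and 10.1 CPM, against 36.2, 34.2 and 30.1 CPM in Shengsimai. The locus newGene_39948 fell likewise in Zhoumai18, with 0 counts at 96 h, against 4644, 5380 and 5367 at 0 h (at least 5566-fold lower), and in Shengsimai it had 27.6, 27.3 and 26.6 CPM at 96 h, against 32.0, 31.2 and 28.8 CPM at 0 h. In Baipimai the largest falls were those of newGene_39022, with 0, 9 and 0 counts at 96 h, against 2832, 2717 and 2725 at 0 h and a log2 fold change of -9.97 (SE 0.29, adjusted p = 2.3e-20), and newGene_20029, with -9.18 (SE 0.33, adjusted p = 2.3e-19). In Shengsimai newGene_12678 had 0 counts at 96 h, against 681, 590 and 932 at 0 h (at least 688-fold lower). The locus newGene_14108 (LOC109760947) also had 0 counts in Shengsimai at 96 h, but its 0 h libraries were split, at 26, 2948 and 2896 counts, and the same was true of Baipimai at 0 h (2446, 14 and 1945 counts).

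Between varieties, new loci differed in size of difference more than in the number of calls. The comparison asks which transcripts set a resistant variety apart from the susceptible one at a given time. At 0 h, 7530 new loci (54.6%) differed between Baipimai and Zhoumai18, 4074 of them higher (29.5%) and 3456 lower (25.1%) in Baipimai, against 49.2% of all tested genes, 25.7% higher and 23.5% lower. At 48 h, 7664 new loci (55.6%) differed between this pair, 3410 of them higher (24.7%) and 4254 lower (30.9%) in Baipimai, against 53.6% of all tested genes, 28.6% higher and 25% lower. At 96 h, 10987 new loci (79.7%) did so, 7072 of them higher (51.3%) and 3915 lower (28.4%) in Baipimai, against 82.4% of all tested genes, 39.6% higher and 42.7% lower. The numbers of calls were close to the background at each time, and at 96 h they leaned to higher in Baipimai. Between Shengsimai and Zhoumai18, 8325 new loci (60.4%) differed at 0 h, 3320 of them higher (24.1%) and 5005 lower (36.3%) in Shengsimai, against 58.7% of all tested genes, 29.4% higher and 29.4% lower. At 48 h, 9115 new loci (66.1%) differed between these varieties, 5895 of them higher (42.8%) and 3220 lower (23.4%) in Shengsimai, against 62.4% of all tested genes, 29.1% higher and 33.3% lower. At 96 h, 11279 new loci (81.8%) differed between them, 8261 of them higher (59.9%) and 3018 lower (21.9%) in Shengsimai, against 81.6% of all tested genes, 39.5% higher and 42.2% lower. Higher levels in Shengsimai outnumbered lower ones at 48 and 96 h and not at 0 h. Between Baipimai and Shengsimai, 7208 new loci (52.3%) differed at 0 h, 4775 of them higher (34.6%) and 2433 lower (17.6%) in Baipimai, against 47.7% of all tested genes, 24.1% higher and 23.5% lower. At 48 h, 8342 new loci (60.5%) differed between the resistant varieties, 2206 of them higher (16%) and 6136 lower (44.5%) in Baipimai, against 61.7% of all tested genes, 33.4% higher and 28.4% lower. At 96 h, 8544 new loci (62.0%) differed in that comparison, 3017 of them higher (21.9%) and 5527 lower (40.1%) in Baipimai, against 62.7% of all tested genes, 31.8% higher and 31% lower. The 3 sets of comparisons share libraries. The split at 0 h between Shengsimai and Zhoumai18 moved with the scale, with 25.5% of calls higher in Shengsimai by limma on log2(FPKM + 1), against 39.9% here.

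Differences of at least 16-fold, a size chosen after the data were seen, were counted among the calls on library totals, with a floor of 3 counts for a group without counts. Between Baipimai and Zhoumai18 they were found at 0 h for 2283 new loci (16.6%), against 3.75% of TraesCS genes and 6.33% of all tested genes. At 48 h this held for 2545 new loci (18.5%), against 3.45% of TraesCS genes and 6.46% of all tested genes, and at 96 h for 2947 new loci (21.4%), against 11.3% of TraesCS genes and 13.3% of all tested genes. New loci with such a difference were more frequent than TraesCS genes at 0 and 48 h, and the gap was narrower at 96 h, where TraesCS genes with such differences were more frequent too. Between Shengsimai and Zhoumai18 the count at 0 h was 2228 new loci (16.2%), against 4.83% of TraesCS genes and 7.11% of all tested genes. It was 2620 new loci (19%), against 5.12% of TraesCS genes and 7.91% of all tested genes at 48 h, and 2841 new loci (20.6%), against 13.3% of TraesCS genes and 14.8% of all tested genes at 96 h. Between Baipimai and Shengsimai it was 1430 new loci (10.4%), against 1.95% of TraesCS genes and 3.64% of all tested genes at 0 h, 1671 new loci (12.1%), against 5.25% of TraesCS genes and 6.63% of all tested genes at 48 h, and 1713 new loci (12.4%), against 4.18% of TraesCS genes and 5.83% of all tested genes at 96 h. In 1342 of the 2283 new loci between Baipimai and Zhoumai18 at 0 h, a variety had no count in its 3 libraries, against 702 of 2060 TraesCS genes and 2044 of 4343 of all tested genes. A new locus can enter the table through reads of a single variety, so this contrast can also follow in part from how the loci were listed, which was not tested.

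New loci are rarer transcripts than TraesCS genes, so the same shares were taken within ranges of mean CPM of the library total. For Baipimai over Zhoumai18 at 0 h, a difference of at least 16-fold was found below 1 CPM in 25.5% of new loci, against 6.68% of TraesCS genes, and between 1 and 5 CPM in 17.6% of new loci, against 4.92% of TraesCS genes. Between 5 and 20 CPM it was found in 10.5% of new loci, against 2.10% of TraesCS genes, and at 20 CPM or more in 6.73% of new loci, against 1.31% of TraesCS genes. The share of new loci was the higher in all 4 ranges and all 9 comparisons between varieties except Shengsimai over Zhoumai18 at 96 h below 1 CPM, where it was 36.3% of new loci, against 39.8% of TraesCS genes. Over time the order was not fixed: at 48 over 0 h such changes were found in 3.41% of new loci, against 5.84% of TraesCS genes in Baipimai, in 7.84%, against 2.81% in Shengsimai and in 11.6%, against 4.09% in Zhoumai18. Over all tested genes the shares were 5.35, 3.82 and 5.59% in Baipimai, Shengsimai and Zhoumai18. At 96 over 0 h they were found in 3.16%, against 5.18% in Baipimai, in 8.09%, against 3.93% in Shengsimai and in 14.9%, against 15.0% in Zhoumai18 (4.77, 4.76 and 15% of all tested genes).

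**Figure D4:**
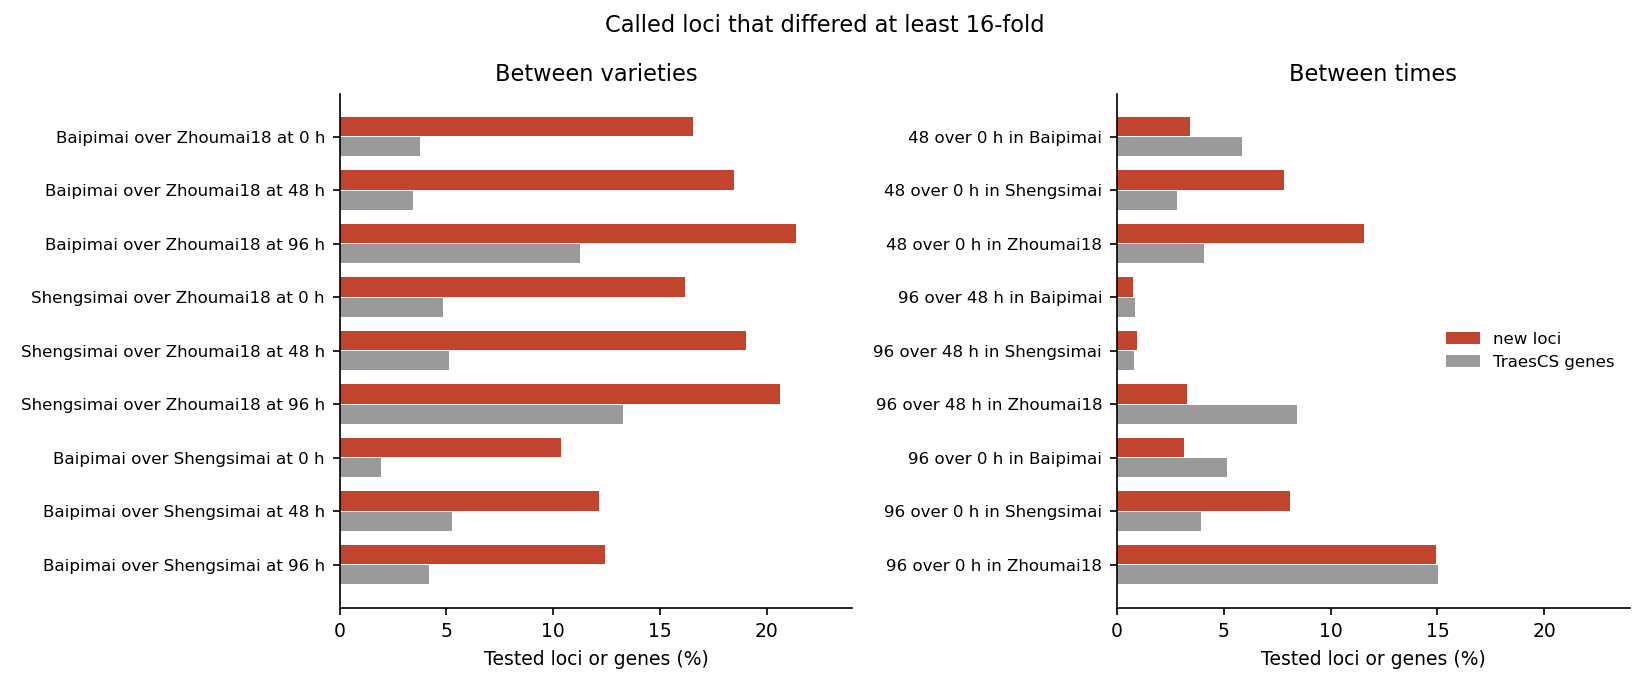
Percent of tested new loci and tested TraesCS genes with an edgeR call and a difference of at least 16-fold, for the 9 comparisons between varieties and the 9 between times. Between varieties new loci lie above TraesCS genes in every comparison, from 10.4% against 1.95% for Baipimai over Shengsimai at 0 h to 21.4% against 11.3% for Baipimai over Zhoumai18 at 96 h.

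The far end of these differences is a locus with counts in some varieties at all times and none in the others. A locus was called present in a variety with at least 10 counts in each of its 9 libraries, and absent with at most 1 count in each. Of 15613 new loci present in at least 1 variety, 8062 (51.6%) were present in all 3, against 40198 of 50749 TraesCS genes (79.2%). Present in a single variety and absent in both others were 95 new loci in Baipimai, 140 in Shengsimai and 208 in Zhoumai18, against 21, 39 and 44 TraesCS genes. Absent in a single variety and present in both others were 89 new loci in Baipimai, 92 in Shengsimai and 230 in Zhoumai18, against 44, 55 and 111 TraesCS genes. The counts depend on the limit for presence: loci of Zhoumai18 alone numbered 319 at 5 counts and 125 at 20 counts, and loci missing from Baipimai 53 at 20 counts. As a share of those present anywhere, loci of a single variety made up 2.84% of new loci and 0.205% of TraesCS genes, and loci missing from a single variety 2.63% and 0.414%. No test was made of these counts, and the level of new loci is lower than that of TraesCS genes. A new locus can also enter the table through reads of a single variety, so the excess over TraesCS genes can follow in part from how the loci were listed. A count of 0 in 9 libraries limits the RNA of a locus and does not show that the locus is missing from the genome.

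Among loci of Baipimai alone, newGene_28692 (LOC109775305) had 533 to 2969 counts (median 1986) over the 9 Baipimai libraries, against 0 counts in all 18 libraries of the other 2 varieties (at least 11086-fold higher, against a floor of 3 counts over the 18). In the same variety newGene_2429 had 312 to 1501 counts (median 1047) and newGene_50879 253 to 344 counts (median 308), also against 0 in all 18. Among loci of Shengsimai alone, newGene_9561 had 816 to 2091 counts (median 1731) over the 9 Shengsimai libraries, against 0 in the other 18 (at least 8586-fold higher). These loci were found at every time and had not a single count elsewhere. The other 2 Shengsimai loci named by rule were newGene_5605, with 446 to 1960 counts (median 1042), and newGene_53819, with 358 to 708 counts (median 624). For newGene_42518 the 18 libraries of the resistant varieties had 0 counts, against 373 to 909 counts (median 511) in the 9 of Zhoumai18 (at least 3573-fold lower in the resistant varieties). They also had 0 counts of newGene_28766, against 221 to 449 counts (median 266) in Zhoumai18, and of newGene_54440, against 170 to 331 counts (median 247).

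Among loci missing from Zhoumai18, newGene_28765 had 1330 to 3828 counts (median 2061) in the 18 libraries of the resistant varieties, against 0 in all 9 of Zhoumai18 (at least 7021-fold higher in the resistant varieties). Its number is next to that of newGene_28766, which had counts in Zhoumai18 alone, though the files used here do not say that neighbouring numbers lie next to each other on a chromosome. Such a pair was rare. It was found for 1 of the 208 loci of Zhoumai18 alone, 2 of the 95 of Baipimai and 0 of the 140 of Shengsimai. The locus newGene_3479 (LOC109732069) had 1083 to 4276 counts (median 2438) in the resistant varieties, against 0 in Zhoumai18 (at least 7837-fold higher), and newGene_6421 had 975 to 1475 counts (median 1309), against 0. The TraesCS gene with the symbol of newGene_3479, TraesCS6B01G436500, had 0 counts in all 27 libraries. Shengsimai had 0 counts of newGene_3613 in its 9 libraries, against 921 to 1496 counts (median 1196) in the other 18, 0 of newGene_3649 (LOC109761985), against 428 to 2407 counts (median 1325), and 0 of newGene_54774, against 241 to 470 counts (median 368). Baipimai had 0 counts of newGene_11439, against 217 to 1036 counts (median 353) in the other 18 libraries, 0 of newGene_18169, against 179 to 707 counts (median 380), and 2 of newGene_2304 over its 9 libraries together, against 163 to 411 counts (median 232) per library in the others.

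Part of the loci present in a single variety by this rule changed over time in that variety. Such a locus had almost no counts elsewhere, so it could pass the level filter only through that variety, and the numbers are a description. Of the 140 Shengsimai loci 107 were tested. Of these, 81 rose and 13 fell at 96 over 0 h in Shengsimai, where 39.5% of all tested genes rose and 33.2% fell (60.3% and 15.0% of tested new loci). Of the 95 Baipimai loci 63 were tested, of which 33 rose and 7 fell in Baipimai (39.4% and 31.4% of all tested genes, 49.2% and 17.4% of tested new loci). Of the 208 Zhoumai18 loci 107 were tested, of which 35 rose and 41 fell in Zhoumai18 (44.4% and 37.8% of all tested genes, 40.5% and 33.4% of tested new loci). The 230 loci missing from Zhoumai18 held 193 tested, which passed the filter through the resistant varieties. Of these, 114 rose and 30 fell in Baipimai, and 137 rose and 30 fell in Shengsimai, with the shares of all tested genes given above. Summed over the 140 Shengsimai loci, a Shengsimai library held 12328 to 57627 counts (median 41722), against 0 or 1 in each library of the other varieties.

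**Figure D5:**
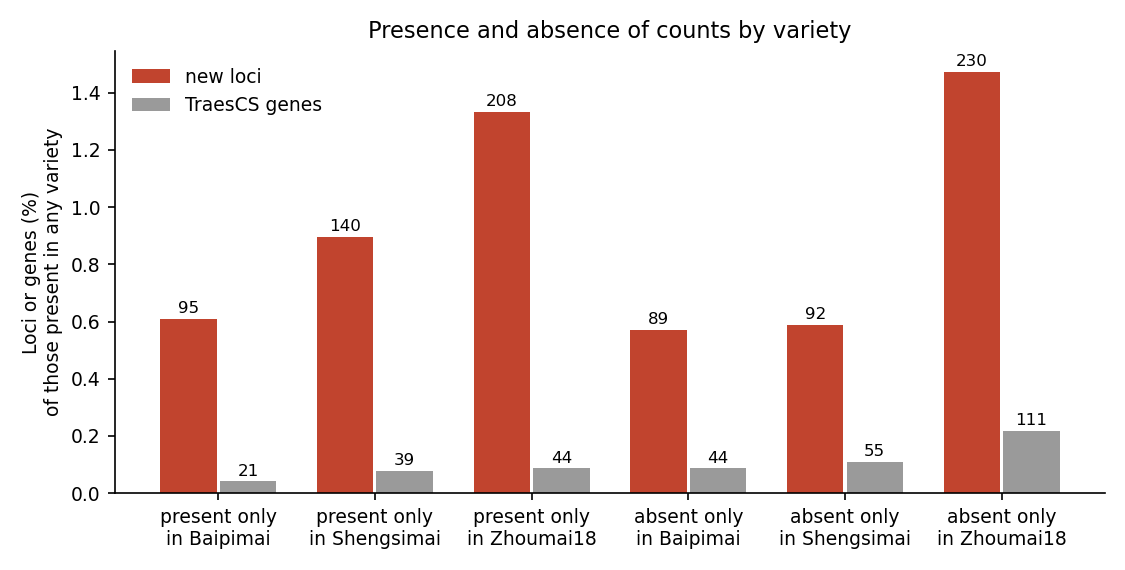
Percent of new loci and TraesCS genes present in a single variety and absent in both others, or absent in a single variety and present in both others, for each variety. Bars are percent of the 15613 new loci or 50749 TraesCS genes present in any variety, and the numbers above them are counts. Present means at least 10 counts in each of the 9 libraries and absent at most 1. New loci outnumber TraesCS genes in all 6 patterns, from 89 against 44 for loci missing from Baipimai to 230 against 111 for loci missing from Zhoumai18, a contrast to which the way the loci were listed can add.

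Whether the change over time itself differed was tested by an interaction, the change from 0 to 96 h in a resistant variety minus that in Zhoumai18. For Baipimai 7790 new loci were called (56.5%), 5477 with a more positive change in Baipimai and 2313 with a more negative one (39.7% and 16.8%), against 66.8% of all tested genes in either direction, 34.3% more positive and 32.5% more negative. For Shengsimai 8709 were called (63.2%, against 65.2% of all tested genes), 7303 more positive (53.0%) and 1406 more negative (10.2%), against 35.1% and 30.1%. The median difference of log2 changes was 0.50 over new loci, against 0.00 over all genes tested for Baipimai, and 1.08, against 0.06 for Shengsimai. Both contrasts use the same Zhoumai18 libraries.

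The loci named for the largest differences had no or few counts in some of the groups compared. More positive in Shengsimai was newGene_31144 (LOC109763955), with 682, 617 and 901 counts at 96 h, against 0 at 0 h in Shengsimai, and 0 at 96 h, against 110, 155 and 218 at 0 h in Zhoumai18. All 9 Baipimai libraries were at 0 for this locus. The locus newGene_54325 had 211, 188 and 167 counts at 96 h, against 0 at 0 h in Shengsimai, and 0 at 96 h, against 4, 4 and 11 at 0 h in Zhoumai18. It was not particular to Shengsimai, since the Baipimai libraries together held 959 counts of it at 96 h and 132 at 0 h. More positive in Baipimai was newGene_6097, with 294, 366 and 280 counts at 96 h, against 0 at 0 h in Baipimai, and 4, 5 and 2 at 96 h, against 59, 25 and 32 at 0 h in Zhoumai18, where it peaked at 48 h with 943, 911 and 814 counts. Shengsimai libraries together held 270 counts of newGene_6097 at 48 h and 18 at 96 h, against 0 at 0 h. The locus newGene_30233 had counts almost only in Zhoumai18 at 0 h (587, 699 and 738), with 0 there at 48 and 96 h and at most 2 counts in any library of the resistant varieties, and its interaction in Baipimai was lost without Baipimai 96 h replicate 2, which held 2 of those counts (adjusted p = 3.0e-04 with it and 1 without).

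More negative in a resistant variety were loci with counts in Zhoumai18 at 96 h. The locus newGene_30475 had 0, 1 and 0 counts at 96 h, against 7, 0 and 5 at 0 h in Shengsimai, and 7520, 7025 and 6378 at 96 h, against 2, 0 and 4 at 0 h in Zhoumai18. The difference of log2 changes was -14.90 (SE 2.85, adjusted p = 4.6e-05). For newGene_12499 the contrast of Shengsimai had an adjusted p of 0.0461 and rested on 2 counts in Shengsimai 0 h replicate 1, without which it was 1; it was between 0.0503 and 0.0526 without Shengsimai 0 h replicate 3, Zhoumai18 0 h replicate 3 or any 1 library of the 96 h groups of Shengsimai and Zhoumai18. In Baipimai the contrasts of newGene_12499 and newGene_21381 were lost without Baipimai 0 h replicate 3 (adjusted p = 5.8e-05 for newGene_12499 and 2.4e-06 for newGene_21381 with it, 1 for each without), which held 15 and 7 counts of them. Without those libraries the resistant groups compared held 0 counts or close to 0, and the Zhoumai18 counts are the same.

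A few new loci carried symbols of genes for proteins of mitochondria or plastids and are named here although the rule for names did not choose them, that is, with their values known. The locus newGene_19059, with the symbol atp2, had 78.3, 74.0 and 78.9 CPM at 0 h, 103, 112 and 122 CPM at 48 h and 366, 339 and 371 CPM at 96 h in Zhoumai18, and its log2 fold change of 96 over 0 h was 0.34 in Baipimai, 0.23 in Shengsimai and 2.23 (SE 0.08, adjusted p = 1.2e-19) in Zhoumai18. The symbol atp2 is used for a subunit of the mitochondrial ATP synthase. Of 5 others, with the symbols cox1 and cobA (respiratory chain) and rbcL and psbC (photosynthesis), a library held at most 139 counts, and only newGene_5430 (cobA) passed the level filter.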

How the data were processed

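The authors deposited 1 table with a count and an FPKM value (fragments scaled to transcript length and library size) for each gene in each of 27 libraries of polyadenylated RNA (NEBNext Ultra, Illumina sequencing at Beijing Biomarker Technologies). Aligner, assembler, counting tool, genome build and the way new loci were found are not given in the sources used here, and 1 malformed line of the table was left out. The members and all lists were chosen with earlier results of these data known.

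Counts were tested with edgeR 4.0.16 in R 4.3.3 (quasi-likelihood, TMM scaling, 9 group means, genes with at least 1 FPKM in 3 libraries, Benjamini-Hochberg adjusted p under 0.05). Shares and numbers detected were compared by exact permutation of libraries within strata, with 8000 relabellings (smallest p 0.00025). Library totals of 45590141 to 55765523 counts limit the precision for rare loci, and the floor of 3 counts covers counting error only. Replicates of a group differed by more than sampling noise (chi-square per degree of freedom 2.89 to 12.6). In data simulated for 96 over 0 h in Zhoumai18, only 200 of 68658 genes were changed, all of them new loci. There edgeR recovered 75% of genes changed 2-fold and 99% of those changed 4-fold, with 6 false calls. In the real comparison 82.2% of all tested genes were called, so its number of false calls cannot be read from this simulation. Named loci were the 10 most abundant, at most 3 per variety and pattern of presence, at most 2 per variety and direction of change from 0 to 96 h, at most 3 per direction changed in all varieties and at most 2 per interaction and direction; the symbols of mitochondrial and plastid proteins, the 16-fold size, the ranges of level, the interactions of shares and the split replicates were chosen after the data were seen. Alternatives used DESeq2 1.42.0 (test and size factors), limma 3.58.1 on log2(FPKM + 1) and log2(FPKM + 0.1), other filters, limits and scaling, the replicate number as a block, and each library left out. A second deposited table gives the resistance class and seed colour of the varieties in words and entered no test.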

Additional observations from a re-analysis of the deposited data

Results flagged for a closer look

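The share of counts in new loci changed over time by different amounts in the varieties. From 0 to 48 h the share changed by 6.41 percentage points in Shengsimai and by 3.38 points in Zhoumai18, a difference of 3.02 points (exact permutation test with 400 relabellings, two-sided, p = 0.005, adjusted p = 0.03 over 12 tests chosen after the data were seen). From 0 to 96 h it changed by 5.58 points in Shengsimai and by 0.145 points in Zhoumai18, a difference of 5.44 points (exact test, p = 0.005, adjusted p = 0.03). A p of 0.005 is the smallest that these relabellings can give. They exchange the libraries of the varieties compared within each time. Their p therefore refers to no difference between varieties at either time, and not to an equal change. In Baipimai the difference from Zhoumai18 was 3.23 points at 96 minus 48 h (adjusted p = 0.06, exact test) and 2.36 points at 96 minus 0 h (adjusted p = 0.105). Neither passed, which does not show that the changes were equal. The share of the 50 most abundant genes and the levels of the chlorophyll protein genes moved with Zhoumai18 at 96 h, as given above, and their part was not tested.

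The change from 0 to 96 h of single new loci differed from that in Zhoumai18 for 7790 loci in Baipimai and 8709 in Shengsimai (edgeR interaction, adjusted p under 0.05), both a smaller part of the loci tested than of all genes tested.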

How the results depend on the processing

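The labels do not pair samples by replicate number, and the data left this unsettled. Deviations from the group means of same-numbered libraries correlated at -0.202 to 0.303 (median -0.0041 over 108 pairs, against 0.0041 over 216 pairs of different numbers). Yet 15 of 27 libraries were closest to their own number (9 if numbers meant nothing), a hint from the data and not from the design. With the replicate number as a block, the counts of calls moved little (7511 for Baipimai over Zhoumai18 at 0 h, against 7530), but 96 minus 48 h in the share of counts (-1.36 points) had an adjusted p of 0.0781 in the exact test, and newGene_12499 in Shengsimai had 0.0543. With single libraries left out the range was -1.52 to -1.19 points for that share of counts, and -157 to 21.1 loci for Baipimai minus Shengsimai in the number detected, which was not called. For the shares, numbers detected and counts of loci, over all alternatives that left out no library, the block included, 212 values kept their direction and side of the threshold, 49 counts moved by over 1.5 times and 5 values changed their call or sign. For the named loci 379 values stayed the same and 1 lost its call, that of newGene_12499 with the block. Without the 50 most abundant genes in the total, the share differed by 2.59 points for Shengsimai minus Zhoumai18 (adjusted p = 0.0274, exact test) and by -1.55 points for Baipimai minus Shengsimai (adjusted p = 0.0444). With detection at 1 FPKM, Baipimai minus Zhoumai18 was -119 loci (adjusted p = 0.637, exact test), and Shengsimai minus Zhoumai18 turned to 74.0 loci (adjusted p = 0.751); the cause was not tested. Loci of Zhoumai18 alone numbered 319 with presence at 5 counts and 125 at 20 counts, and loci missing from Baipimai 53 at 20 counts.

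A minimum of 2-fold left 4795 and 4795 new loci for Baipimai over Zhoumai18 at 0 and 48 h (34.8% each, against 22.4% and 23.6% of all tested genes). It left 5392 and 5300 for Shengsimai over Zhoumai18 (39.1% and 38.4%, against 26.7% and 29.2%). For Baipimai over Shengsimai at 0, 48 and 96 h it left 4142, 3872 and 4678 (30.0, 28.1 and 33.9%, against 17.8, 25.9 and 28.5%). Over time it left 6058 at 48 over 0 h, 2230 at 96 over 48 h and 6098 at 96 over 0 h in Baipimai (43.9, 16.2 and 44.2%, against 40.6, 19.4 and 39.5% of all tested genes). At 96 over 48 h it left 911 in Shengsimai (6.61%, against 7.58%) and 4861 in Zhoumai18 (35.3%, against 41.2%). Wider filters test more loci and call more. The shares over all genes under these filters are not given, so the numbers show no excess or deficit of new loci. With 10 counts in 3 libraries, and then with no filter, the calls at 0, 48 and 96 h were 12825, 13077 and 19066, then 13218, 13634 and 20488 for Baipimai over Zhoumai18, and 13935, 15127 and 19065, then 14388, 15784 and 20378 for Shengsimai over Zhoumai18. For Baipimai over Shengsimai at 48 and 96 h they were 12938 and 13634, then 13171 and 14034. In the same order of filters, 48 over 0 h gave 14559 and 14898 in Baipimai, 16717 and 17272 in Shengsimai and 16980 and 17976 in Zhoumai18. At 96 over 0 h the numbers were 14054 and 14317, 16634 and 17233, and 18062 and 19812 in those varieties, at 96 over 48 h in Zhoumai18 13597 and 13963, and for the interactions 11839 and 12027 in Baipimai and 13100 and 13272 in Shengsimai.

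The direction of calls moved by over 10 points with limma on log2(FPKM + 0.1) for Shengsimai over Zhoumai18 (25.1% higher, against 39.9%) and Baipimai over Shengsimai (76.5%, against 66.2%) at 0 h and for 96 over 48 h in Baipimai (42.0%, against 54.1%). With the 2-fold minimum it was 54.5%, against 64.7%, for Shengsimai over Zhoumai18 and 39.3%, against 26.4%, for Baipimai over Shengsimai at 48 h. Scaling from TraesCS genes alone moved the median of all genes by 0.25 at 48 over 0 h and 0.18 at 96 over 0 h in Shengsimai and by 0.21 in its interaction (log2).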

Other observations

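Single libraries of a group disagreed in few loci, by a rule chosen after the data were seen: 1 library at or under 2% of the other 2, which both had at least 100 counts, or the reverse. Over the 27 libraries this held 35 times for a low library and 49 times for a high library among new loci, against 14 and 12 times among TraesCS genes. A library held 0 to 4 low and 0 to 5 high new loci. Among TraesCS genes, Baipimai 0 h replicate 3 held 7 of the 12 high cases and every other library 0 or 1; the same library held the counts of newGene_12499 and newGene_21381 on which their interaction calls in Baipimai rested. The locus newGene_14108 described above, with 26, 2948 and 2896 counts in Shengsimai at 0 h, is a case.

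A few counts of loci abundant in Zhoumai18 at 96 h stood in replicate 3 of other groups. At 48 h Baipimai replicates 1, 2 and 3 had 3, 0 and 34 counts of newGene_12499, and Zhoumai18 had 0, 4 and 34.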
